A study of Rattus norvegicus with 13 samples.

Results

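Transcripts of glycolysis, glycogen handling and pyruvate metabolism were examined in the ventricular zone (VZ), the layer of progenitor cells lining the lateral ventricle, of newborn rats with and without thyroid hormone insufficiency. The set held 39 listed genes, and a gene entered where the deposited table had a row of its name with a mean of at least 10 normalized counts over all 13 pups. Of the 39, 38 were found, each with 1 row, among 14716 rows. Pgk1 is not analysed here. The 38 members were read in 5 roles: 8 of glycogen handling, 11 of upper glycolysis, 7 of lower glycolysis and lactate, 4 of glucose and lactate transport, and 8 around pyruvate.

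All samples came from male Long Evans rats on postnatal day 2 (PN2), with 1 pup per litter. The 7 control pups were born to dams that drank vehicle water and were labelled euthyroid. The 6 PTU exposed pups were born to dams given 3 ppm propylthiouracil (PTU), an inhibitor of thyroid hormone synthesis, in drinking water during pregnancy and lactation, so that the exposure reached the pup through its mother. The posterior VZ was cut out by laser capture microdissection and total RNA of the captured tissue was sequenced in bulk, so fewer cells of a type and less RNA per cell cannot be told apart. The study reported some degradation of the RNA from the captured VZ. The comparison asks which transcripts of fuel use differ in this progenitor niche when thyroid hormone is low.

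Glycolysis splits glucose into pyruvate in a chain of cytosolic enzymes, and pyruvate is either reduced to lactate or carried into the mitochondrion, where the pyruvate dehydrogenase complex turns it into acetyl-CoA. Glycogen is the stored form of glucose: phosphoglucomutase and UDP-glucose pyrophosphorylase lead glucose 6-phosphate towards it, glycogen synthase builds it, and the phosphorylases release it again. In the brain, glycogen is held chiefly by astrocytes and other glia of the radial glial lineage, while several glycolytic enzymes have one isoform typical of glia and another typical of neurons.

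The estimated read totals ran from 22295876 to 43513438 in the control pups and from 28415202 to 44389038 in the PTU exposed pups. The 3 highest rows took 32.4 to 60.1% of the summed values in control pups and 23.9 to 57.0% in PTU exposed pups, and pups of a group correlated with each other at 0.927 to 0.980 (Pearson's r of log2 values over rows, which are not independent). The captured tissue carried all 9 listed radial glia markers, none of them at 0. Choroid plexus markers were also present, at a summed level of 49207 to 138296 normalized counts in control pups and 22842 to 98654 in PTU exposed pups, and neuronal, astrocytic and oligodendrocyte lineage markers were all found as well. None of the 6 red blood cell names searched had a row.

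No member passed the test across all rows. By limma with Benjamini-Hochberg adjustment over 14606 rows, 0 rows reached an adjusted p of 0.05, which is 0.0% of rows, and 0 of the 38 members did. At an unadjusted limma p under 0.05, 12 members were set apart, 8 with a lower and 4 with a higher PTU mean. Those 12 are 31.6% of the members, beside 16.3% of all rows tested. In the lower direction the background was 8.2% of rows, and in the higher direction 8.11%. The 2 groups did not overlap in 0.596% of all rows, and in 1 member, Pgm1. Of the 38 members, 21 were lower and 17 higher, with a median log2 fold change of -0.03 beside 0.00 over all rows. Leaving out 1 pup moved that median between -0.08 and 0.03, above 0 without control pup 5 or PTU pup 3, and the number of lower members between 18 and 22.

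The plot of fold changes by role gives each role's members, and differences between roles were not tested. Among the 8 glycogen transcripts 6 were lower in PTU exposed pups, 5 of them at an unadjusted p under 0.05 (median log2 fold change -0.25). In upper glycolysis 7 of 11 were lower, 2 at that p, with a median of -0.03. In lower glycolysis and lactate 5 of 7 were higher, 2 at that p, with a median of 0.10. The 4 transporters had a median of 0.11 and the 8 pyruvate transcripts a median of 0.03, with equal numbers higher and lower in both.

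**Figure D1:**
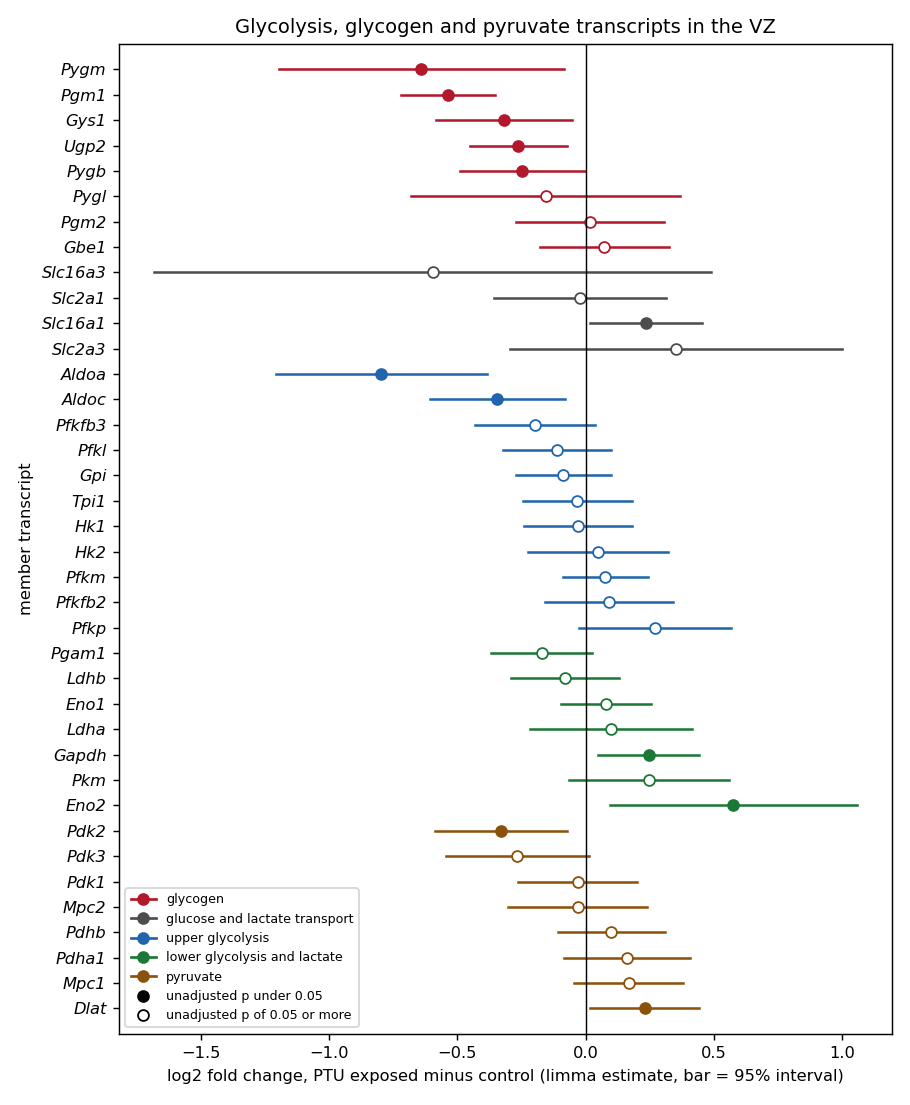
Log2 fold change (PTU exposed minus control, on log2 of normalized count plus 1) of the 38 members, grouped and coloured by role, with the 95% interval of the limma fit as bars and filled points for an unadjusted p under 0.05. In the glycogen group 6 of 8 points lie left of 0, down to -0.64 for Pygm, and in lower glycolysis 5 of 7 lie right of 0, up to 0.58 for Eno2.

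The clearest difference of the set was in glycogen handling. Pgm1 (row ENSRNOT00000013785), the phosphoglucomutase that interconverts glucose 6-phosphate and glucose 1-phosphate at the entry to glycogen, ranged from 1401 to 1798 (median 1586) normalized counts in the control pups and from 947 to 1246 (median 1053) in the PTU exposed pups. Every PTU exposed pup was below every control pup. The PTU mean was 69.0% of the control mean, 1081 ± 108 against 1567 ± 132 (SD, n = 6 and 7), a log2 fold change of -0.54 ± 0.09 (SE). Its limma p ranked 1 among all rows, but the adjusted p was 0.0981. The exact two-sided permutation test over every way of forming groups of 7 and 6 gave p = 0.000583, unadjusted and the smallest the test can give. The call depended on the pups and their weights: the adjusted limma p of Pgm1 was 0.0255 without PTU pup 2 and 0.0489 without control pup 6, beside 0.0381 with all pups weighted by quality, and its log2 fold change ran from -0.58 to -0.50 over the 13 fits that each left out 1 pup.

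Ugp2, UDP-glucose pyrophosphorylase, which makes the UDP-glucose that glycogen synthase uses, ranged from 838 to 1107 (median 957) normalized counts in control pups and from 724 to 894 (median 824) in PTU exposed pups. All 6 PTU exposed pups were below the control mean and 4 were below the lowest control pup. On average Ugp2 was at a log2 fold change of -0.26 ± 0.09 (limma adjusted p = 0.180, exact permutation p = 0.00408). Gys1, the glycogen synthase of muscle and brain, ranged from 684 to 1069 (median 787) in control pups and from 563 to 865 (median 622) in PTU exposed pups. Of the PTU exposed pups 4 were below the lowest control pup, and 1 was above the control mean. Its log2 fold change was -0.32 ± 0.13 (limma adjusted p = 0.236, exact permutation p = 0.0332). With a marker score as a covariate it was -0.17 ± 0.19 (radial glia), -0.24 (neuron), -0.34 (astrocyte) and -0.21 (choroid plexus). The radial glia score nearly separated the groups, so values fitted with it are only a description.

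The phosphorylases, which release glucose 1-phosphate from glycogen, were also lower on average. Pygb, the brain isoform, ranged from 4679 to 7737 (median 5217) normalized counts in control pups and from 3725 to 5544 (median 4581) in PTU exposed pups, and all 6 PTU exposed pups were below the control mean. The log2 fold change of Pygb was -0.25 ± 0.12, with an unadjusted limma p just under 0.05, a limma adjusted p of 0.302 and an exact permutation p of 0.0688. Its unadjusted p was no longer under 0.05 in a fit without the variance trend, nor without control pup 5, where the fold change was -0.16. With the score of the radial glia markers, all 9 of which were lower, as a covariate Pygb was at 0.09 ± 0.14, and the cause was not tested. Pygm, the muscle isoform, also made by astrocytes, was scarce: it ranged from 48.7 to 116 (median 87.5) in control pups and from 39.6 to 73.7 (median 50.3) after PTU. The groups overlapped, because control pups 1 and 2 lay as low as the PTU exposed pups. The log2 fold change of Pygm was -0.64 ± 0.26 (limma adjusted p = 0.251, exact permutation p = 0.0274). Pygl, the liver isoform, averaged 143 ± 50.3 in control pups and 126 ± 36.3 in PTU exposed pups, and its log2 interval of -0.68 to 0.37 spans 0.

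The remaining pair of the group lay near 0. Gbe1, the branching enzyme, had a log2 fold change of 0.07 ± 0.12, and Pgm2, another gene of the phosphoglucomutase family, 0.02 ± 0.14. Pgm2 averaged 553 ± 100.4 normalized counts in control pups and 559 ± 95.3 with PTU, so the non-overlap of Pgm1 was not seen in Pgm2. Both intervals span 0 (for Pgm2, -0.27 to 0.31). Whether the Pgm1 and Pgm2 differences differ from each other was not tested.

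The start regions of 5 glycogen transcripts are shown, those with an unadjusted limma p under 0.05. Each is the 250 bases before the first listed RefSeq start of the gene on the GRCr8 assembly, 5′ to 3′ on the gene's strand: Pgm1 at chr5:119710484-119710733 (plus strand), Ugp2 at chr14:99698003-99698252 (minus strand), Gys1 at chr1:105051666-105051915 (plus strand), Pygb at chr3:160071891-160072140 (plus strand) and Pygm at chr1:213119555-213119804 (plus strand). Capitals mark ACGTG or, on the other strand, its reverse complement. ACGTG is a form of the core of the hypoxia response element that hypoxia inducible factors bind. Other forms of that core were not searched, so a window without capitals can still hold such a core.
Pgm1: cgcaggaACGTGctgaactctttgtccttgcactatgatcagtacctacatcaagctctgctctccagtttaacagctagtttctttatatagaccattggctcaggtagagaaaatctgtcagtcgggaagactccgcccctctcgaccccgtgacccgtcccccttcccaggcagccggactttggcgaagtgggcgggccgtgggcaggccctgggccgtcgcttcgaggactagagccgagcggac
Ugp2: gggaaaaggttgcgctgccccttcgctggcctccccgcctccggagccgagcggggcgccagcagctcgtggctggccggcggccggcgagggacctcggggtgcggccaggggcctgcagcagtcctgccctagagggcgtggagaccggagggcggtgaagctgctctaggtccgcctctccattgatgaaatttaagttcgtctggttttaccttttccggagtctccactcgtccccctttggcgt
Gys1: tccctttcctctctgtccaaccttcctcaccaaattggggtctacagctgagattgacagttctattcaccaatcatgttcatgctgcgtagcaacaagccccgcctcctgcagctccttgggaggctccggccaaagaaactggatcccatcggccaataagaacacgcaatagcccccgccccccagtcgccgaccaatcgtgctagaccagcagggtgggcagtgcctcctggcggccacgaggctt
Pygb: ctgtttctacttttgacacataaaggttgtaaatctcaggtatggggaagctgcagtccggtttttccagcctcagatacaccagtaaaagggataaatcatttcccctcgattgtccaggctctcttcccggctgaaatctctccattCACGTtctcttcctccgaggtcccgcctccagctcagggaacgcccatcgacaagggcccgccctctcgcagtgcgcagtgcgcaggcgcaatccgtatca
Pygm: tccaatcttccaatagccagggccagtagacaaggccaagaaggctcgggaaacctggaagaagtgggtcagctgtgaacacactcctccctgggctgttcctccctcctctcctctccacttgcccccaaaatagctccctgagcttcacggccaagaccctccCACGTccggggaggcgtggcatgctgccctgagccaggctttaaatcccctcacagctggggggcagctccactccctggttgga

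The letters ACGTG occurred once before Pgm1, 243 bases before the start, and once before Pygb on the other strand, 101 bases before the start. Before Pygm they also occurred once on the other strand, 85 bases before the start. They were not found in the windows of Ugp2 and Gys1. Searched on both strands over the same length, 19 of the 37 members with a promoter entry (51.4%) held ACGTG, 6 of 8 in the glycogen group, beside 16.9% of all 27457 promoters and 21.9% of the 10177 promoters of genes with a tested row. AGGTCA, the half-site that thyroid hormone receptors share with other nuclear receptors, occurred in 3 of 37 members (8.11%), beside 13.7% of all promoters and 10.2% of those of tested genes. These are matches of letters in windows on an assembly other than the one the reads were aligned to, and a match is not a bound site. Slc2a3 was the 1 member not searched.

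Among the transporters, Slc16a1, the monocarboxylate transporter MCT1 that moves lactate and pyruvate across membranes of glia and endothelium, ranged from 949 to 1431 (median 1157) normalized counts in control pups and from 1233 to 1683 (median 1389) in PTU exposed pups. All 6 PTU exposed pups were above the control mean and 3 were above the highest control pup. The log2 fold change was 0.24 ± 0.10 (limma adjusted p = 0.278, exact permutation p = 0.0385). Slc2a1, the glucose transporter GLUT1 of the blood-brain barrier and glia, ranged from 840.5 to 1812 (median 1174) in control pups and from 936 to 1471 (median 1133) in PTU exposed pups. The PTU exposed pups lay inside the control range (log2 fold change -0.02) with an interval of -0.36 to 0.31 (limma adjusted p = 0.956).

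Slc2a3, the neuronal glucose transporter GLUT3, averaged 174 ± 45.9 normalized counts in control pups and 249 ± 159 in PTU exposed pups, with PTU pup 1 at 540.1. Its log2 fold change was 0.35 ± 0.31, and 0.09 without that pup. Slc16a3, the lactate exporter MCT4, was the scarcest member, at 4.91 to 107 (median 48.7) in control pups and 18.5 to 44.6 (median 24.0) in PTU exposed pups. Control pup 6 had an estimated 5 reads of it, and the log2 fold change of -0.60 ± 0.51 became -1.07 without that pup (limma adjusted p = 0.131).

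In upper glycolysis the 2 aldolases, which split fructose 1,6-bisphosphate, had the lowest fold changes. Aldoa, the form typical of muscle and also found in neurons, ranged from 1060.0 to 2084 (median 1559) normalized counts in control pups and from 598 to 1616 (median 865) in PTU exposed pups. Of the PTU exposed pups 4 were below every control pup, while PTU pup 2 was just above the control mean. The means were 1606 ± 328 and 958 ± 367 (SD, n = 7 and 6), a log2 fold change of -0.80 ± 0.19 (limma adjusted p = 0.122, exact permutation p = 0.00874). Without PTU pup 2 the log2 fold change of Aldoa was -0.96 and its limma adjusted p 0.0252.

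Aldoc, the aldolase of astrocytes and radial glia, had the highest estimated read count of the set, up to 18688 reads in a pup. It ranged from 11324 to 17343 (median 13524) normalized counts in control pups and from 7899 to 14103 (median 10714) in PTU exposed pups. Again 4 PTU exposed pups were below every control pup, and 1 was above the control mean. The log2 fold change was -0.34 ± 0.13 (limma adjusted p = 0.203, exact permutation p = 0.0280). All 9 radial glia markers were lower as well. With their score, which nearly separated the groups, as a covariate Aldoc was at 0.12 ± 0.12, and the cause was not tested.

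The hexokinases, which trap glucose in the cell as its phosphate, lay near 0. Hk1, the main brain form, was tight in control pups at 3789 to 4189 (median 3986) normalized counts and ran from 3406 to 5589 (median 3584) in PTU exposed pups. PTU pup 1 stood above all control pups and 4 other PTU exposed pups below all of them, so the mean difference of -0.03 (log2; interval -0.24 to 0.18; limma adjusted p = 0.912) joins both. Hk2, the inducible form, ranged from 203 to 264 (median 240.2) in control pups and from 215 to 278 (median 238) after PTU (log2 fold change 0.05, interval -0.23 to 0.32; limma adjusted p = 0.885).

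The other upper enzymes were within their spread. Of the phosphofructokinases, which commit glucose to glycolysis, Pfkl had a log2 fold change of -0.11, Pfkm 0.08 and Pfkp, the platelet form that is also made in brain, 0.27. Pfkfb3 and Pfkfb2, which make the activator of phosphofructokinase, had -0.20 and 0.09. Gpi, the isomerase next to hexokinase, and Tpi1, triosephosphate isomerase, had -0.09 and -0.03. The 95% interval of each of these 7 spans 0.

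In lower glycolysis 2 of 7 transcripts, Gapdh and Eno2, were set apart at an unadjusted limma p under 0.05, both with a higher PTU mean. Gapdh, the dehydrogenase that makes the first NADH of the pathway and is often used as a reference gene, ranged from 1194 to 1407 (median 1294) normalized counts in control pups and from 1280.0 to 1916 (median 1516) in PTU exposed pups. Of the PTU exposed pups 5 were above the highest control pup and 1 was inside the control range. The log2 fold change was 0.25 ± 0.09 (limma adjusted p = 0.217, exact permutation p = 0.00932). With the astrocyte marker score as a covariate, all 6 of whose markers were lower, Gapdh was at 0.14. It was at 0.22 with the radial glia score, 0.29 with the neuron score and 0.31 with the choroid plexus score. Eno2, neuron-specific enolase, ranged from 347 to 617 (median 418) in control pups and from 435 to 1548 (median 602) in PTU exposed pups. PTU pup 1 lay far above the other PTU exposed pups, and 3 of 6 were above all control pups. Its log2 fold change was 0.58 ± 0.23 (limma adjusted p = 0.236, exact permutation p = 0.0379), and 0.34 without PTU pup 1. All 10 neuron markers were higher as well. With their score as a covariate Eno2 was at 0.18 ± 0.17, and the cause was not tested.

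Eno1, the enolase of most cells, had a log2 fold change of 0.08 (interval -0.10 to 0.25), and Pgam1, phosphoglycerate mutase, -0.17 (interval -0.37 to 0.03). Pkm, pyruvate kinase, ranged from 2494 to 4069 (median 2813) normalized counts in control pups and from 2620.0 to 5575 (median 3251) in PTU exposed pups. Only PTU pup 1 was above all control pups, and the log2 fold change was 0.25 ± 0.15 (limma adjusted p = 0.413), or 0.11 without that pup.

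The lactate dehydrogenases, which interconvert pyruvate and lactate, did not separate the groups. Ldha, whose subunit favours lactate formation, ranged from 1369 to 2009 (median 1819) normalized counts in control pups and from 1417 to 2764 (median 1673) in PTU exposed pups, where 2 pups were above all control pups. Ldhb, whose subunit favours pyruvate formation, ranged from 3025 to 3862 (median 3147) in control pups and from 2310.0 to 3512 (median 3199) in PTU exposed pups, where 1 pup was below all control pups. The log2 fold changes were 0.10 (interval -0.22 to 0.42) and -0.08 (interval -0.29 to 0.13), with limma adjusted p of 0.769 and 0.716. Gapdh, Ldha, Pgam1 and Eno1 have near-identical processed copies in rodent genomes among which the authors' counting could split reads, so their values are uncertain to that extent.

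Around pyruvate, 1 transcript lay lower and 1 higher at an unadjusted p under 0.05. Pdk2, a kinase that switches pyruvate dehydrogenase off, ranged from 1085 to 1536 (median 1181) normalized counts in control pups and from 784 to 1311 (median 1035) in PTU exposed pups. Of the PTU exposed pups 4 were below every control pup and PTU pup 2 was above the control mean. The log2 fold change was -0.33 ± 0.12 (limma adjusted p = 0.208, exact permutation p = 0.0286). With the radial glia marker score, which nearly separated the groups, as a covariate Pdk2 was at 0.08 ± 0.14, and the cause was not tested. Dlat, the acetyltransferase core of the pyruvate dehydrogenase complex, ranged from 631 to 864 (median 702) in control pups and from 753 to 997 (median 848) in PTU exposed pups, all 6 of which were above the control mean. Its log2 fold change was 0.23 ± 0.10 (limma adjusted p = 0.274, exact permutation p = 0.0245), and 0.03 ± 0.14 with that covariate.

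The other pyruvate transcripts were within their spread. Pdha1 and Pdhb, the subunits of the first enzyme of the complex, had log2 fold changes of 0.16 and 0.10. The further kinases Pdk3 and Pdk1 had -0.27 and -0.03, and Mpc1 and Mpc2, which together form the mitochondrial pyruvate carrier, 0.17 and -0.03. Over the 26 members at an unadjusted p of 0.05 or more, 13 were higher and 13 lower, and their limma adjusted p ran from 0.325 to 0.961.

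**Figure D2:**
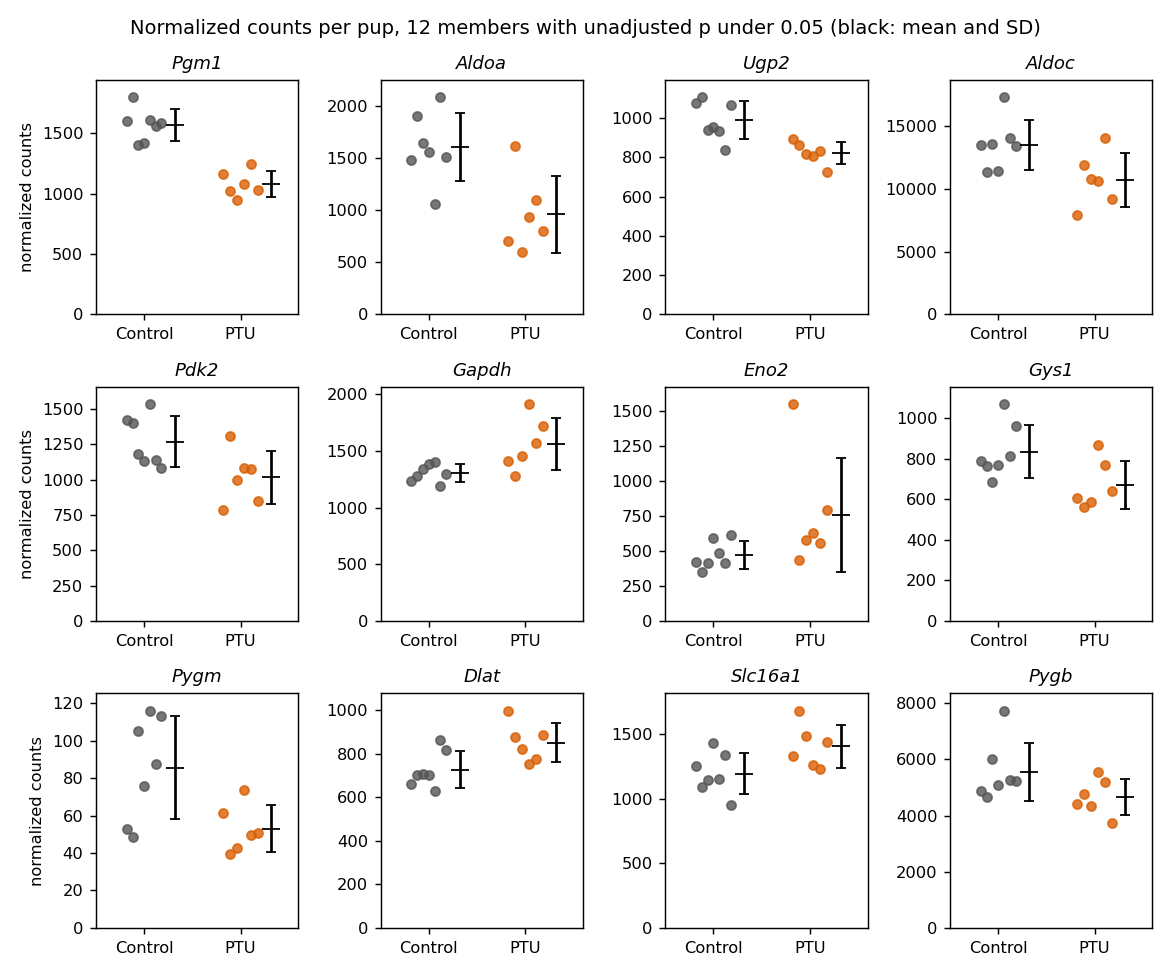
Normalized counts per pup of the 12 members with an unadjusted limma p under 0.05, 7 control pups (grey) and 6 PTU exposed pups (orange), with the group mean and SD in black; each axis starts at 0. Only in Pgm1 do the groups not overlap, with control pups from 1401 to 1798 and PTU exposed pups from 947 to 1246, and in Eno2 PTU pup 1 stands alone at 1548.

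The spread was not even over pups. Among the PTU exposed pups, pup 4 had the highest value of its group in 14 of the 38 members and pup 1 in 11, while control pup 5 was the highest control in 15. The coefficient of variation between control pups ran from 3.91 to 57.7% over members, with a median of 13.4%, and between PTU exposed pups from 7.03 to 63.7%, with a median of 14.4%. It was larger in the PTU group for 23 of the 38 members. The map of members by pup shows Pgm1, Ugp2, Pygm and Pgam1 below the control mean in all 6 PTU exposed pups. It also shows high values of Eno2, Slc2a3, Pkm and Hk1 together in PTU pup 1. That pup also had the highest neuron marker score, 1.14 (mean row-centred log2 value) beside 0.43 in the next pup, a radial glia score of -0.45, as low as that of PTU pup 6, and the lowest quality weight, 0.454. Their part in these values was not tested.

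**Figure D3:**
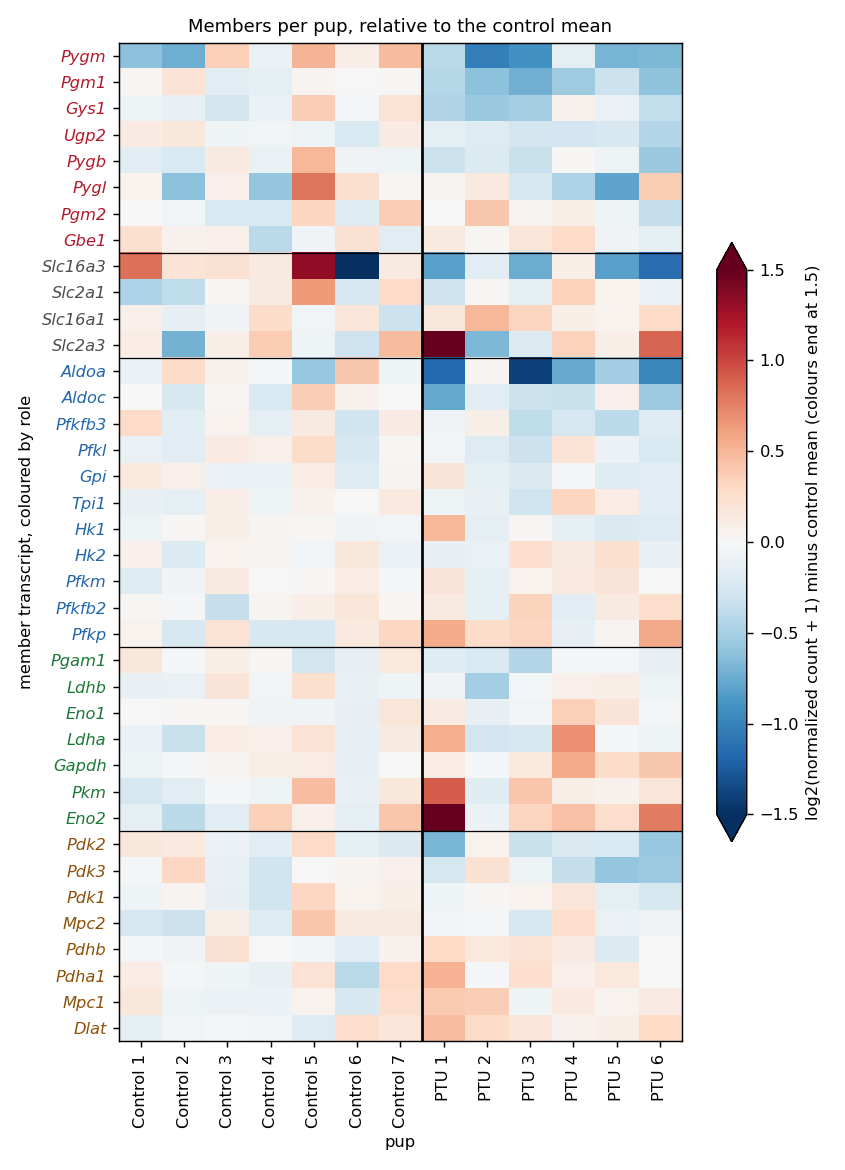
Log2 (normalized count plus 1) of each member (rows, by role) in each pup (columns), minus the mean of the 7 control pups; blue is lower, red higher, and colours end at 1.5. Pgm1 is blue in all 6 PTU exposed pups, and PTU pup 1 is deep red for Eno2 and Slc2a3.

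Enzyme forms that stand for each other were also compared within a pup, as 10 log2 ratios of normalized counts, for which only the difference between groups can be read because the values are not per length. The Pdk1 to Pdk2 ratio was higher in PTU exposed pups by 0.30 (-0.81 ± 0.24 against -1.11 ± 0.19, SD; exact permutation p = 0.0326, adjusted over the 10 ratios 0.243). Aldoa to Aldoc was lower by 0.45, Eno1 to Eno2 lower by 0.50 and Pfkl to Pfkp lower by 0.38, each with an exact permutation p under 0.1 and the same adjusted p of 0.243. For Ldha to Ldhb the difference was 0.18 and for Hk1 to Hk2 -0.08 (adjusted exact permutation p = 0.362 and 0.642). Pygb to Gys1, glycogen release against synthesis, differed by 0.07 (adjusted exact permutation p = 0.592). The groups overlapped in all 10 ratios, and 0 of 10 passed. Without PTU pup 1 the Eno1 to Eno2 ratio was lower by 0.27, and the Slc2a1 to Slc2a3 ratio by 0.05 rather than 0.37. Without control pup 6, in which Slc16a3 was at 4.91 normalized counts, the Slc16a1 to Slc16a3 ratio was higher by 1.34 rather than 0.83 (adjusted exact permutation p = 0.0433).

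**Figure D4:**
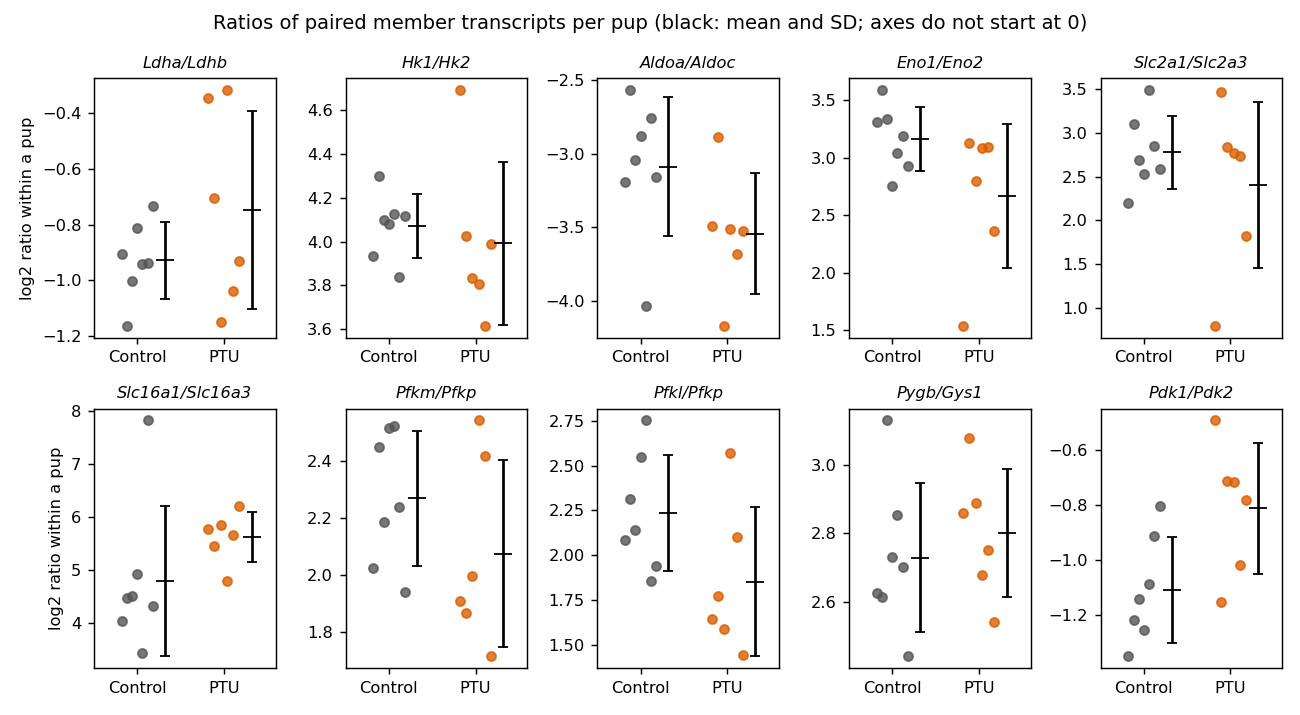
Log2 ratio of 2 member transcripts within each pup for the 10 ratios, control pups in grey and PTU exposed pups in orange, with mean and SD in black; axes do not start at 0. The groups overlap in every panel, and control pup 6 stands apart at 7.83 for Slc16a1/Slc16a3.

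The neighbouring pathways held no called row either. Of 42 found of 54 further genes of these steps, 19 were higher and 23 lower, with 5 in each direction at an unadjusted limma p under 0.05. These 10 are 23.8% of the 42, beside 16.3% of all rows. The smallest p values there belonged to Pgam5, a mitochondrial phosphatase despite its mutase name (0.48 log2), Gaa, the lysosomal enzyme that degrades glycogen (-0.35), and Pdpr, a regulatory subunit of pyruvate dehydrogenase phosphatase (-0.21). The groups did not overlap for Pgam5 and Pdpr, beside 0.596% of all rows. Of 6 found of 7 pentose phosphate genes 5 were higher, and 3 of the 6 were at that p, beside the same 16.3%. The smallest p values were those of Pgls (-0.35), Taldo1 (0.30) and Rpe (0.48).

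All 16 listed genes of the citric acid cycle were found, 12 with a higher and 4 with a lower PTU mean, 4 and 2 of them at an unadjusted limma p under 0.05 (37.5% of the list, beside 16.3% of all rows). Among those with the smallest p values were Mdh2, malate dehydrogenase (0.32 log2), and Sdhc, a membrane subunit of succinate dehydrogenase (-0.30). Of 11 found of 12 hypoxia targets outside glycolysis, 9 were lower, 3 of them (27.3% of the list) at that p: Egln3, an oxygen sensing hydroxylase (-0.36), P4ha1, a collagen prolyl hydroxylase (-0.29), and Vegfa, the angiogenic growth factor (-0.27). Of 9 found of 11 regulators of these pathways 7 were lower, 1 of them (11.1% of the list) at that p, and the smallest p values were those of Epas1, a hypoxia inducible factor (-0.18), Arnt, its partner (-0.16), and Prkaa1, a catalytic subunit of AMP-activated kinase (-0.17). The median log2 fold change was 0.07 for the cycle and -0.20 for the hypoxia targets, beside 0.00 over all rows.

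Markers of several cell types differed on average between the groups. All 9 radial glia markers were lower in PTU exposed pups, 6 at an unadjusted limma p under 0.05, with summed levels of 77115 to 107046 normalized counts in control pups and 63549 to 84047 in PTU exposed pups. All 6 astrocyte markers were lower (2 at that p; 28404 to 36565 against 20011 to 32295), and all 8 choroid plexus markers were lower (5 at that p). All 10 neuron markers were higher, 5 at that p, with summed levels of 57774 to 84027 against 75501 to 125593. No marker of these 4 lists was at 0. All 7 oligodendrocyte lineage markers were higher, 2 at that p, with summed levels of 4788 to 8882 against 6439.8 to 10113. All 4 intermediate progenitor markers were lower on the log2 scale, 1 at that p, with summed levels of 7039 to 11293 against 7903 to 9403. Of these Neurod1 was at -0.03 (log2), while its mean was 1429 normalized counts in control pups and 1747 in PTU exposed pups. Of the 4 ependymal markers found 3 were lower (2 at that p), and of 6 endothelial markers 4 were higher and 2 lower (1 lower at that p). Microglia markers were 3 higher and 3 lower (2 lower at that p), and cycling markers 2 higher and 2 lower (0 at that p). These counts stand beside 8.2% of all rows lower and 8.11% higher at that p.

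The members were therefore also fitted with a marker score as covariate, a setting chosen after seeing the data. The radial glia score nearly separated the groups, at -0.023 to 0.38 in control pups and -0.45 to -0.017 in PTU exposed pups, so that fit can hardly divide the score from the exposure and its values are only a description. In it Pgm1 was at a log2 fold change of -0.53 ± 0.14 (SE), beside ± 0.09 without the score, Pygm at -0.64 ± 0.42 and Ugp2 at -0.24 ± 0.14. Aldoa had -0.66 and Slc16a1 0.21 in that fit. Aldoc, Pygb, Pdk2 and Eno2 (-0.13) took the opposite sign in it. With the neuron score Pgm1 was at -0.54 and Eno2 had 31.3% of its value without it. With the astrocyte score Pgm1 had 89.6% of its value, while Pdk2 had 47.9%, Gapdh 55.9% (0.14) and Pygb 56.1%. With the choroid plexus score Pgm1 had 95.1%, Pygb 40.4%, Slc16a1 55.8%, Dlat 63.1% and Gys1 67.6%. The lowest limma adjusted p over all rows was 0.987 with the radial glia score and 0.821 with the astrocyte score, so no member passed the test in either. The part of these cell types in the differences of single members was otherwise not tested. With the choroid plexus score 2 rows passed the test, neither of them among the 12 members fitted here.

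**Figure D5:**
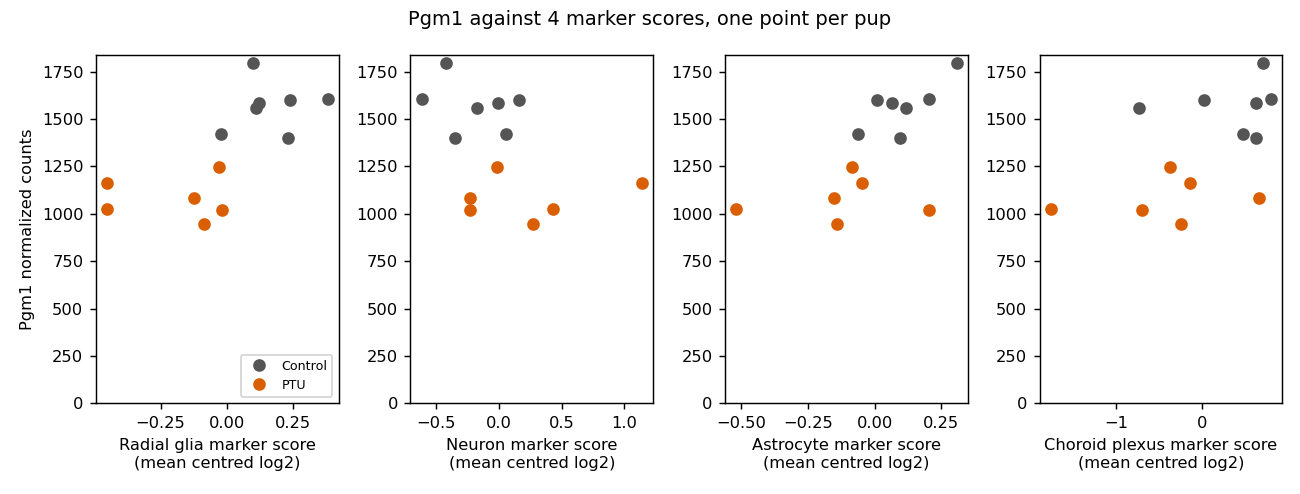
Normalized counts of Pgm1 in each pup against its radial glia, neuron, astrocyte and choroid plexus marker scores (mean row-centred log2 value of the listed markers), control pups in grey and PTU exposed pups in orange. PTU exposed pups lie at 947 to 1246 and control pups at 1401 to 1798, and along the radial glia axis the groups overlap by 1 pair of pups, PTU pup 2 at -0.017 and control pup 4 at -0.023.

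The scaling of the table set how many members were read as lower. When all pups were brought to 1 common total, the median of all rows shifted to 0.20 (log2) and 10 rather than 21 of the 38 members were lower, but relative to that median 21 were again lower. Relative to it Pgm1 was at -0.54, Aldoa at -0.80, Gapdh at 0.24 and Eno2 at 0.57.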

How the data were processed

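Total RNA of the laser captured posterior VZ of 7 control and 6 PTU exposed pups was sequenced after ribosomal RNA depletion with a stranded low input kit. Reads were trimmed with Trimmomatic and aligned to mRatBN7.2 (rn7) with STAR 2.7.8a, and the authors made counts with the expectation/maximization model of Partek, then scaled each pup by its median ratio size factor. The deposited signal is therefore a normalized count per row, not a read count. Of the rows, 14466 carry transcript and 250 gene identifiers, and 1488 carry no gene name but stayed in the fit under their identifier. The identifiers are Ensembl's while the study's methods name a RefSeq annotation for counting, so which gene models a row's value rests on is not settled here. The authors' own comparison columns (p-values, ratios, fold changes and group means) were not used. Only 88.1 to 89.7% of values between 20 and 150 were whole multiples (within 0.02) of the value of 1 read, under the 95% required, so no read count test was run and the read totals given are estimates.

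The 14606 rows that averaged 10 or more were fitted as log2(normalized count + 1) with limma 3.58.1 in R 4.3.3, with a trend in the variance and Benjamini-Hochberg adjustment over all rows at a threshold of 0.05. A fold change on this scale can understate the change of low rows. Single members and 10 within-pup ratios were also compared by exact two-sided permutation tests. Tested on simulated data of 14606 rows, the fit recovered 18, 39, 47 and 50 of 50 rows given log2 changes of 0.5, 1, 2 and 4 and called 6 of 14406 unchanged rows. The simulated rows varied independently with normal noise, whereas rows of a real pup can deviate together, so recovery in the real data may be lower. The alternatives were other pseudocounts (0.1 and 10), other filters on low rows, other scalings, rows summed per gene, weights on pups, a fit without the trend, a block for replicate number, and leaving out each pup, with marker scores added later. Members, pathway lists and markers were chosen with earlier results of these data known. All members found are named, those with an unadjusted p under 0.05 and 8 reference steps in full, and of each pathway list the 3 with the smallest p, of which 1 gene is not reported here. Promoters and motifs come from RefSeq (GRCr8), matched by symbol for 37 of 38 members.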

Additional observations from a re-analysis of the deposited data

Results flagged for a closer look

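In 96 groups of values (38 members and 10 ratios in both groups), 6 held a pup that lay further from the others than Dixon's 95% limit allows, and chance alone flags about 1 in 20 groups. In Hk1, PTU pup 1 had 5589 normalized counts, and the next PTU exposed pup 3986. In Ldhb, PTU pup 2 had 2310 and the next 3121. In Slc16a3, control pup 6 had 4.91 and the next 46.1, and through it the log2 Slc16a1 to Slc16a3 ratio of that pup was 7.83 beside 4.93 in the next. In Pfkfb2, control pup 3 had 364 normalized counts and the next 459. The log2 Aldoa to Aldoc ratio of control pup 5 was -4.03 and the next -3.19.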

How the results depend on the processing

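The number of called rows depended on the weight of single pups. With pups weighted by quality 40 rows passed, among them 1 member, Pgm1 (limma adjusted p = 0.0381). Leaving out 1 pup gave 0 to 179 rows and 0 to 2 members, with 179 rows and both Pgm1 and Aldoa without PTU pup 2, and 7 rows and Pgm1 without control pup 6. Pups of the groups share replicate numbers but no litter or batch is given for them, and same-numbered pups deviated together only weakly (correlations of -0.07 to 0.20). With the replicate number as a block 18 rows and 1 member passed (Pgm1, -0.53, adjusted p = 0.0475), and Slc2a1 was at 0.025. With the same total for every pup the number of lower members at an unadjusted p under 0.05 was 1, 10 members were lower, and their median was 0.17 beside 0.20 over all rows. There Hk1 (0.17), Gpi (0.11), Pfkl (0.091), Tpi1 (0.17), Pgam1 (0.031), Ldhb (0.12), Pygl (0.045), Slc2a1 (0.18), Pdk1 (0.17), Mpc2 (0.17) and Pfkfb3 (0.0037) changed sign, by the shift of all rows. With pup weights Pdk1 was at 0.026. With the radial glia score Aldoc (0.12), Eno2 (-0.13), Pygb (0.086) and Pdk2 (0.076) changed sign, and the cause was not tested. Leaving out 1 pup gave 2 to 5 higher members at an unadjusted p under 0.05 (2 without control pup 2, control pup 3, PTU pup 1 or PTU pup 6) and a Slc16a1 to Slc16a3 difference of 0.61 to 1.34. It turned the sign of members near 0: Pgm2 (-0.059 to 0.091), Slc2a1 (-0.10 to 0.085), Pdk1 (-0.081 to 0.020), Mpc2 (-0.091 to 0.038), Ldhb (-0.12 to 0.0052), Tpi1 (-0.10 to 0.021), Ldha (-0.016 to 0.18) and Hk1 (-0.14 to 0.0075). Under a mean of at least 100, Pygm and Slc16a3 have no value, and 6 rather than 8 members were lower at an unadjusted limma p under 0.05. The simulated fit called 18 of 50 rows changed by 0.5 (log2), and smaller changes were not simulated.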
